A study of Mus musculus with 6 samples.

Results

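Retinoic acid, the active form of vitamin A, is made inside cells and acts through receptors in the nucleus, and the genes that make it, carry it, read it and break it down were compared here between fetal and adult mouse mammary cells. The set held 9 genes, taken by name through the accession of their array probes, of 20660 genes that the probes could be matched to. The members were the retinaldehyde dehydrogenases Aldh1a1, Aldh1a2 and Aldh1a3, the retinaldehyde reductase Dhrs3, the carriers Crabp1 and Crabp2, the receptors Rarb and Rarg, and the retinoic acid hydroxylase Cyp26b1. Each had at least 1 probe that passed the filter on low signal, 8 of them in both groups and Crabp1 through the fetal group alone. Rarb had a further probe below that filter.

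Retinol enters the cell from the blood, is oxidised reversibly to retinaldehyde and then irreversibly to retinoic acid. Retinoic acid binds receptors of the Rar family, which sit on DNA as pairs with Rxr receptors and switch the transcription of nearby genes, while Cyp26 enzymes oxidise it for removal. Several genes of the pathway, Rarb, Crabp2, Dhrs3 and the Cyp26 genes among them, are themselves known to be induced by retinoic acid, and retinoid signalling is known for its part in the branching and differentiation of many epithelia.

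Expression was measured on 6 one-colour Agilent mouse arrays, 3 for each group, in cells freshly sorted from the mammary glands of C57Bl6J females. The fetal group came from embryonic day 18.5 (E18.5) and held EpCAM++CD49f+ cells, and the adult group came from mice aged 8 to 12 weeks and held EpCAM+CD49f+ cells, the gate for basal cells. Cells positive for CD31, CD45 or Ter119 (endothelial and blood cells) were left out of both groups, and BP-1-positive stromal cells were left out of the adult group only. Adult glands were digested overnight and fetal glands briefly, so that age, EpCAM gate, BP-1 depletion and digestion time all differed between the groups and cannot be told apart. The labels call the arrays biological replicates, and the number of animals behind each is not given in the sources used here. In such bulk samples, fewer cells of a type and less RNA per cell cannot be told apart.

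The scanner software put 83.3%, 78.9% and 76.8% of probes well above background on fetal replicates 1, 2 and 3, and 82.0%, 78.0% and 76.4% on the adult basal replicates. Replicates correlated across probes at 0.994 to 0.995 in the fetal group and 0.981 to 0.99 in the adult group, and arrays of different groups at 0.832 to 0.853. Values below are log2 signals after the arrays were brought to a common distribution, a difference is fetal minus adult basal on that scale, and a log2 difference of 1 is 2-fold. The signal of a probe depends on the probe as well as on the RNA, so no level of RNA was compared between genes. A difference was called when limma's 2-sided test, Holm-adjusted over the 20448 probes tested, gave an adjusted p of at most 0.05 and the groups differed at least 2-fold. The Benjamini-Hochberg adjustment of the same p-values, which allows more calls, was read beside it.

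The sorted cells were first set against markers of their labelled type. Of 11 basal and myoepithelial markers 8 were called, each higher in the adult basal cells, against 5.18% of all probes called in that direction. Of 17 luminal markers 8 were called, each higher in the fetal cells, against 5.92% of all probes. Among the basal markers, the smooth muscle myosin Myh11 differed by -8.63 and the keratin Krt5 by -3.90, and Krt17, Acta2, Cnn1, Mylk, Tagln and Oxtr were called the same way. Among the luminal markers, the transcription factor Elf5 differed by 7.55 and Foxa1 by 6.46, and Kit, Pgr, Cldn3, Cldn4, Ehf and Csn3 were called the same way. These counts use the brightest tested probe of each gene, and the probes of some genes disagreed. The basal marker Trp63 differed by -0.08 there, but its other probe was called at -3.06 (Holm-adjusted p = 0.00019 by limma). The luminal marker Prlr differed by -0.35 there, but its other probe was called at 1.85 (Holm-adjusted p = 0.026 by limma). All 11 basal markers were well above background on the fetal arrays too, so the fetal cells held RNA of both classes. The only luminal marker that no adult array showed well above background was Csn3. The Benjamini-Hochberg adjustment passed 3 other luminal markers the other way, adult-higher, against 14% of all probes. Elf5 and Csn3 passed the low-signal filter through the fetal group alone, and Myh11 and Esr1, which is among these 3, through the adult group alone, which fixed their direction.

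Aldh1a3, whose product oxidises retinaldehyde to retinoic acid, rose in the fetal cells and was the single member of the set to be called. Aldh1a1 and Cyp26b1, an enzyme that makes retinoic acid and another that removes it, and the receptor Rarb were higher in every fetal array than in any adult array, but passed only the Benjamini-Hochberg adjustment. The carrier Crabp2 was higher in fetal cells under the same adjustment, while Aldh1a2, Rarg and Dhrs3 differed by less than 2-fold. So 1 of 9 members was called against 11.1% of all probes, and the fetal-higher direction of that call held for 5.92% of probes and the adult-higher direction for 5.18%. Under the Benjamini-Hochberg adjustment 6 of 9 members passed, or 5 of the 8 that were strong enough in both groups, all of them fetal-higher, against 30% of all probes, with 16% of all probes fetal-higher and 14% adult-higher. The 2 groups did not overlap for 7 of 9 members, or 6 of those 8, against 69% of all probes. The median difference was 1.54 over the 9 members, 1.32 over those 8 and -0.03 over all probes tested. No share over probes strong enough in both groups is given, so the counts over those 8 lack a background of their own. The remaining member, Crabp1, could enter the test only by being higher in fetal cells, so its own pass is no support for a fetal-higher direction. With 3 arrays a group an exact permutation test cannot go below p = 0.1, so no such test was used for single genes.

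**Figure D1:**
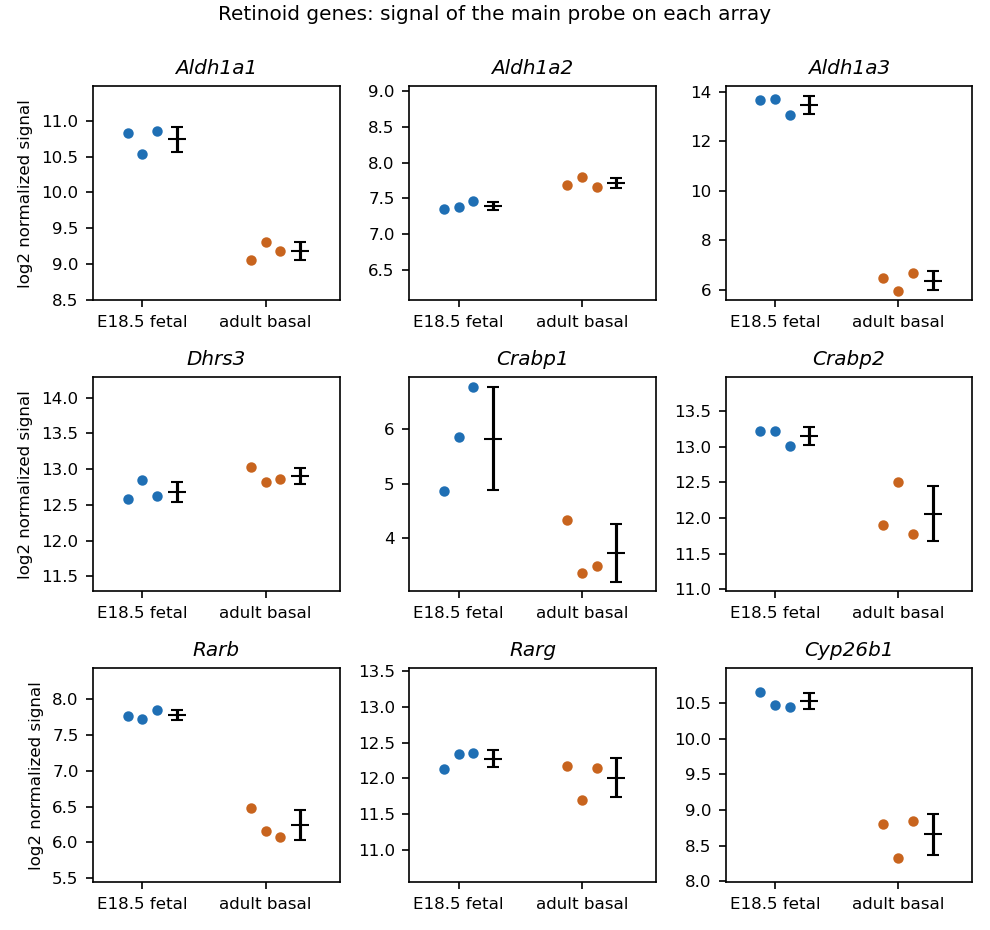
Normalized log2 signal of the tested probe of each of the 9 genes, with a panel per gene and a point per array; bars mark the mean of the 3 arrays of a group and error bars 1 SD. The fetal points for Aldh1a3 lie between 13.05 and 13.72 and the adult basal points between 5.96 and 6.68, while the groups overlap for Rarg and Dhrs3.

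The widest gap in the set belonged to Aldh1a3. It stood at 13.65, 13.72 and 13.05 in fetal replicates 1, 2 and 3, and at 6.46, 5.96 and 6.68 in adult basal replicates 1, 2 and 3. All 3 fetal arrays were far above all 3 adult arrays, and the spread within a group was small beside the gap, at 13.47 ± 0.37 (SD, n = 3) for fetal and 6.36 ± 0.37 (SD, n = 3) for adult basal cells. The difference was 7.11 with an SE of 0.24 and a 95% confidence interval of 6.54 to 7.68, or 138-fold, with a Holm-adjusted p of 0.00019 by limma. Before normalization the processed signals were 13528, 15907 and 9614 in fetal cells and 87.6, 51.1 and 94.0 in adult cells, and every adult array was still well above its background. In the order of all 20448 probes by how much higher they were in fetal cells, Aldh1a3 was at place 23, and by p-value at place 262. It was called in all 18 other ways of processing the data, with differences from 6.29 to 7.32.

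Aldh1a1, an enzyme of the same step, was present in both groups. Its log2 signals were 10.84, 10.54 and 10.86 in the fetal replicates and 9.06, 9.30 and 9.19 in the adult basal replicates. No adult array reached the lowest fetal array, and the difference of 1.56 (SE 0.13, 95% confidence interval 1.26 to 1.86, 2.95-fold) was well beyond the spread of 0.18 and 0.12 (SD, n = 3) within the groups. Its Holm-adjusted p by limma was 0.0845 and its Benjamini-Hochberg adjusted p 3.71e-05, so that the call depended on the adjustment.

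Aldh1a2, the dehydrogenase that supplies most retinoic acid in the early embryo, ran the other way by a small margin. Signals were 7.35, 7.39 and 7.46 in fetal cells and 7.69, 7.80 and 7.66 in adult basal cells. The adult arrays were all higher, by 0.32 on the log2 scale (difference -0.32, SE 0.10, 95% confidence interval -0.55 to -0.09), with a Holm-adjusted p of 1 and a Benjamini-Hochberg adjusted p of 0.0234 by limma, and the difference stayed under the 2-fold limit. This separation appeared only after normalization, as the processed signals before it, 188, 195 and 184 in fetal cells and 206, 173 and 187 in adult cells, overlapped.

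Dhrs3 reduces retinaldehyde back to retinol and so works against the dehydrogenases. Its signals were 12.59, 12.84 and 12.62 in fetal cells and 13.03, 12.83 and 12.86 in adult basal cells. The groups overlapped, since the highest fetal array was just above the lowest adult array, and the difference of -0.22 had a 95% confidence interval of -0.50 to 0.05 (Holm-adjusted p = 1 and Benjamini-Hochberg adjusted p = 0.14 by limma). That interval leaves out a 2-fold difference either way. The genes of the synthesis step were thus unlike each other, with differences of 7.11 for Aldh1a3, 1.56 for Aldh1a1, -0.32 for Aldh1a2 and -0.22 for Dhrs3.

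The carriers Crabp1 and Crabp2 bind retinoic acid in the cytoplasm, and Crabp2 is known for handing it to receptors in the nucleus. Crabp2 stood at 13.22, 13.21 and 13.00 in fetal cells and 11.90, 12.50 and 11.78 in adult basal cells. Fetal arrays were all above adult arrays, with adult replicate 2 the nearest to them, and the means were 13.15 ± 0.12 and 12.06 ± 0.38 (SD, n = 3). The difference was 1.09 (SE 0.20, 95% confidence interval 0.63 to 1.54), close to the 2-fold limit, with a Holm-adjusted p of 1 and a Benjamini-Hochberg adjusted p of 0.00207 by limma. Without adult basal replicate 3 the difference was 0.95, which is under the limit and ends the Benjamini-Hochberg call, and so does a slide term in the fit, at 0.99.

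Crabp1 was near background in the adult cells and varied most among the members. Its signals were 4.86, 5.85 and 6.77 in fetal cells and 4.33, 3.35 and 3.49 in adult basal cells, and it was well above background on all 3 fetal arrays but on 1 of 3 adult arrays. The groups did not overlap, although fetal replicate 1 was closer to adult replicate 1 than to fetal replicate 3. The difference was 2.11 (SE 0.48, 95% confidence interval 0.98 to 3.23), the Holm-adjusted p by limma was 1, and the SD was 0.96 in fetal and 0.53 in adult cells. It fell under the low-signal filter when normexp background correction or an offset of 16 was used. The 6 arrays lay on 2 slides, and within the slide that held fetal replicate 1 the difference was 0.95, against 2.96 within the other slide.

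Rarb and Rarg are retinoic acid receptors, and Rarb is among the textbook targets of retinoic acid itself. The known element through which Rar and Rxr pairs bind is a direct repeat of a 6-base site with a gap of 5, 2 or 1 bases, called DR5, DR2 or DR1. The 250 bases before the annotated start of Rarb held a DR5, and are shown since Rarb was among the members that were higher in fetal cells. The sequence is from RefSeq, GRCm38.p6, at chr14:16575477-16575726, and is read 5′ to 3′ on the minus strand, the strand of the gene, with the 2 repeats in capitals.
Rarb upstream: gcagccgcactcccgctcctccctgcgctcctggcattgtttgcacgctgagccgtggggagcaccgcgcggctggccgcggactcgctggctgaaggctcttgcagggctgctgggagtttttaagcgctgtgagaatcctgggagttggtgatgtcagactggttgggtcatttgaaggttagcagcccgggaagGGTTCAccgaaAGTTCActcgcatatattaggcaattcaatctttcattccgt
The match lay 53 to 37 bases before the start, at chr14:16575513-16575529.

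The search covered 32851 RefSeq windows of 300 bases, 250 before and 50 after a gene's start, on both strands, where either repeat could be AGGTCA in its consensus form, AGTTCA as the first variant allowed, GGGTCA as the second variant allowed or GGTTCA as the third. A DR5 was in 0.0974% of windows, a DR2 in 0.268% and a DR1 in 0.222%. Of the 9 members 7 had a window, all but Aldh1a3 and Crabp2, and among these 7 a match was found for Rarb alone. Among the windows of 44 other pathway genes, a DR1 was found at Bco1, a carotenoid cleavage enzyme whose probe lay under the low-signal filter, and a DR5 at Cyp26a1, the relative of Cyp26b1 that is the best known retinoic acid target of its family. The Cyp26a1 match lay 32 to 16 bases before the start, at chr19:37697776-37697792, in the orientation opposite to the gene. Both matches are printed with 15 bases on either side and the repeats in capitals, Rarb on the minus strand, which is the gene's own strand, and Cyp26a1 on the minus strand as well, which is opposite to its gene.
Rarb DR5: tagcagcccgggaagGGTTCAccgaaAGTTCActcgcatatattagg
Cyp26a1 DR5: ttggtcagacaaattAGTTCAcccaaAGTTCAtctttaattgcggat
A match describes letters in this window and is no measurement of binding.

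The expression of both genes follows, and that of Rarb was known when its sequence was chosen to be shown. Rarb stood at 7.77, 7.72 and 7.85 in fetal cells and 6.47, 6.16 and 6.07 in adult basal cells, with fetal arrays all above adult arrays. The difference was 1.54 (SE 0.13, 95% confidence interval 1.24 to 1.85, 2.92-fold), with a Holm-adjusted p of 0.0983 and a Benjamini-Hochberg adjusted p of 4.15e-05 by limma. The Rarb probe with the lower signal, which the filter left out of the test, gave 5.54, 5.52 and 5.70 in fetal cells and 4.17, 4.81 and 4.56 in adult cells, again with fetal arrays all above adult arrays, and its means differed by 1.07. Cyp26a1 also lay under the filter, at 5.58, 5.10 and 5.40 in fetal cells and 5.44, 4.94 and 5.45 in adult cells, and its groups overlapped.

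Rarg, the other receptor among the members, stood at 12.14, 12.34 and 12.35 in fetal cells and 12.18, 11.69 and 12.15 in adult basal cells. Adult replicate 2 was low and the other adult arrays lay within the reach of the fetal arrays. The difference of 0.27 had a 95% confidence interval of -0.10 to 0.63 (Holm-adjusted p = 1 and Benjamini-Hochberg adjusted p = 0.176 by limma), which leaves out a 2-fold difference.

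Cyp26b1 oxidises retinoic acid and so ends its action. Its signals were 10.65, 10.47 and 10.44 in fetal cells and 8.81, 8.32 and 8.84 in adult basal cells. The fetal arrays were close together and all far above the adult arrays, of which replicate 2 was the lowest, and the means were 10.52 ± 0.11 and 8.66 ± 0.29 (SD, n = 3). The difference was 1.86 (SE 0.16, 95% confidence interval 1.48 to 2.24, 3.64-fold), with a Holm-adjusted p of 0.118 and a Benjamini-Hochberg adjusted p of 4.76e-05 by limma. Without adult basal replicate 2 the difference was 1.70 and the Holm-adjusted p fell to 0.0388.

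**Figure D2:**
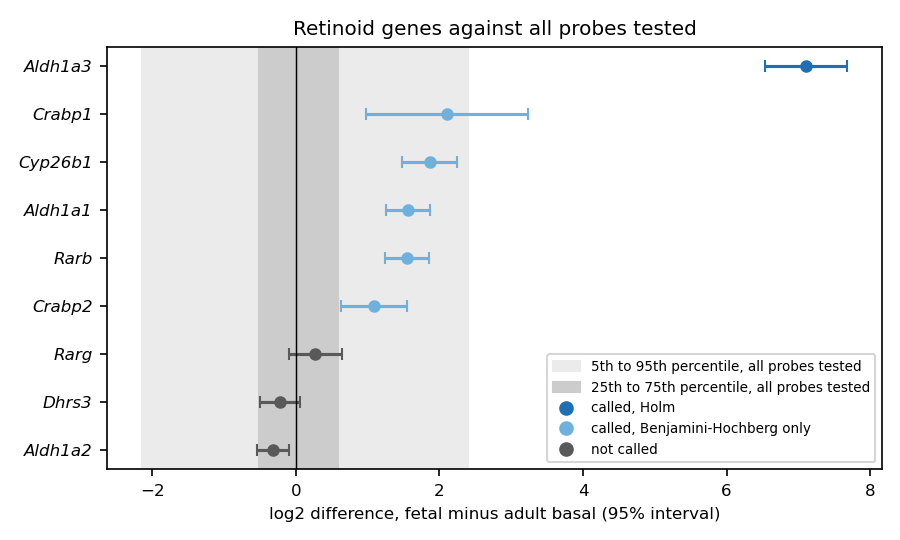
Fetal minus adult basal log2 difference of the 9 genes, with 95% confidence intervals, set against the spread of all 20448 probes tested. Aldh1a3 stands at 7.11, above 99.9% of probes, Aldh1a1, Rarb, Cyp26b1, Crabp1 and Crabp2 lie between 1.09 and 2.11, and the intervals of Rarg and Dhrs3 cross 0.

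Placed among all probes tested, Aldh1a3 was above 99.9% of them in its difference, Crabp1 above 93.9%, Cyp26b1 above 92.7%, Aldh1a1 above 90.6%, Rarb above 90.5% and Crabp2 above 85.1%. The other members were nearer the middle, with Rarg above 64.5% of probes, Dhrs3 above 38.1% and Aldh1a2 above 32.7%. Of all probes, 5% lay below -2.14 and 5% above 2.39. No neighbours in this order from Crabp1 to Crabp2 had intervals that stood clear of each other.

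The rest of the pathway was read from a list of 62 genes, all of them on the array and 48 with a probe strong enough to test. Of the 48, 8 were called against 11.1% of all probes. Of these, 6 were higher in fetal cells, against 5.92% of all probes, and 2 higher in adult basal cells, against 5.18%. With the Benjamini-Hochberg adjustment 15 passed against 30% of all probes, 8 higher in fetal and 7 higher in adult cells. Their median difference was -0.17 and the median size of the difference was 0.62, against 0.55 over all probes tested. The 2 groups did not overlap for 35 of the 48, against 69% of all probes. This count and that under the Benjamini-Hochberg adjustment were near the background, while the called share was above it in the fetal-higher direction. Of the 42 strong enough in both groups, 5 were called and 10 passed with the Benjamini-Hochberg adjustment, again without a background of their own. The called genes Rbp7, Aldh1a7 and Meis2 passed the filter through the fetal group alone. These counts were less stable than the call of Aldh1a3, since leaving out an array left 2 calls (without fetal replicate 1), 3 (without fetal replicate 2, fetal replicate 3 or adult replicate 3), 6 (without adult replicate 1) or 7 (without adult replicate 2).

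Among 12 genes for retinoid uptake, storage and carotenoid cleavage, 9 were tested and 2 rose in fetal cells, against 5.92% of all probes. Rbp7, a cellular retinol-binding protein, stood at 8.60, 9.08 and 9.33 in fetal cells and 4.37, 5.22 and 5.37 in adult cells, a difference of 4.02 (SE 0.30, Holm-adjusted p = 0.0399 by limma). Scarb1, a scavenger receptor that also takes up carotenoids, stood at 12.19, 12.11 and 12.29 in fetal cells and 10.08, 10.08 and 9.94 in adult cells, a difference of 2.16 (SE 0.10, Holm-adjusted p = 0.00215 by limma). In both genes the fetal arrays were all above the adult arrays, and a weaker Scarb1 probe differed by 1.21 with a Holm-adjusted p of 0.775. Rbp7 was called in 8 of the 17 alternatives that refit all probes, with differences from 2.54 to 4.22. Scarb1 was called in 15 of 17, with differences from 2.07 to 2.21. A term for the slide in the fit ended the call of Rbp7, and a term for the replicate number that of Scarb1.

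Among 18 genes for oxidation or reduction of retinol and retinaldehyde, 14 were tested and 2 rose in fetal cells, against 5.92% of all probes. Dhrs4, a reductase that accepts retinal, stood at 10.52, 10.57 and 10.39 in fetal cells and 8.35, 7.86 and 8.05 in adult cells, a difference of 2.41 (SE 0.14, Holm-adjusted p = 0.0102 by limma). Aldh1a7, a close relative of Aldh1a1, stood at 10.60, 10.29 and 10.74 in fetal cells and 3.26, 5.08 and 4.16 in adult cells, a difference of 6.37 (SE 0.41, Holm-adjusted p = 0.0176 by limma). Its adult signal was well above background on 1 of 3 arrays, and under the alternatives its difference ran from 4.25 to 6.83. Whether the probe of Aldh1a1 or Aldh1a7 also bound RNA of the other gene was not tested, so both values are uncertain in that respect. Dhrs4 was called in 11 of 17 alternatives, with differences from 2.20 to 2.54, and Aldh1a7 in 10 of 17. A term for the replicate number in the fit ended both calls.

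The 4 remaining retinoid receptors gave no call. Rara stood at 12.57, 12.49 and 12.36 in fetal cells and 12.99, 13.08 and 13.55 in adult cells, so that its adult arrays were all higher, by 0.73 on the log2 scale (difference -0.73, Benjamini-Hochberg adjusted p = 0.00629 by limma), and its other probe differed by -0.62. Rxra differed by -0.12 and, at its other probe, by 0.16, and the groups overlapped at both. Rxrb differed by -0.03 with a 95% confidence interval of -0.76 to 0.69 and an adult SD of 0.68, set by adult replicate 2 at 13.15 beside 14.27 and 14.38. Rxrg differed by -0.24 at the stronger probe and by 0.64 at the weaker one, where the adult SD was 1.80. None of the 4 reached a 2-fold difference, and 1 of them (Rara) had an unadjusted p under 0.05, against 64.7% of all probes. With Rarb and Rarg, the differences of the 6 receptors ran from -0.73 for Rara to 1.54 for Rarb.

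**Figure D3:**
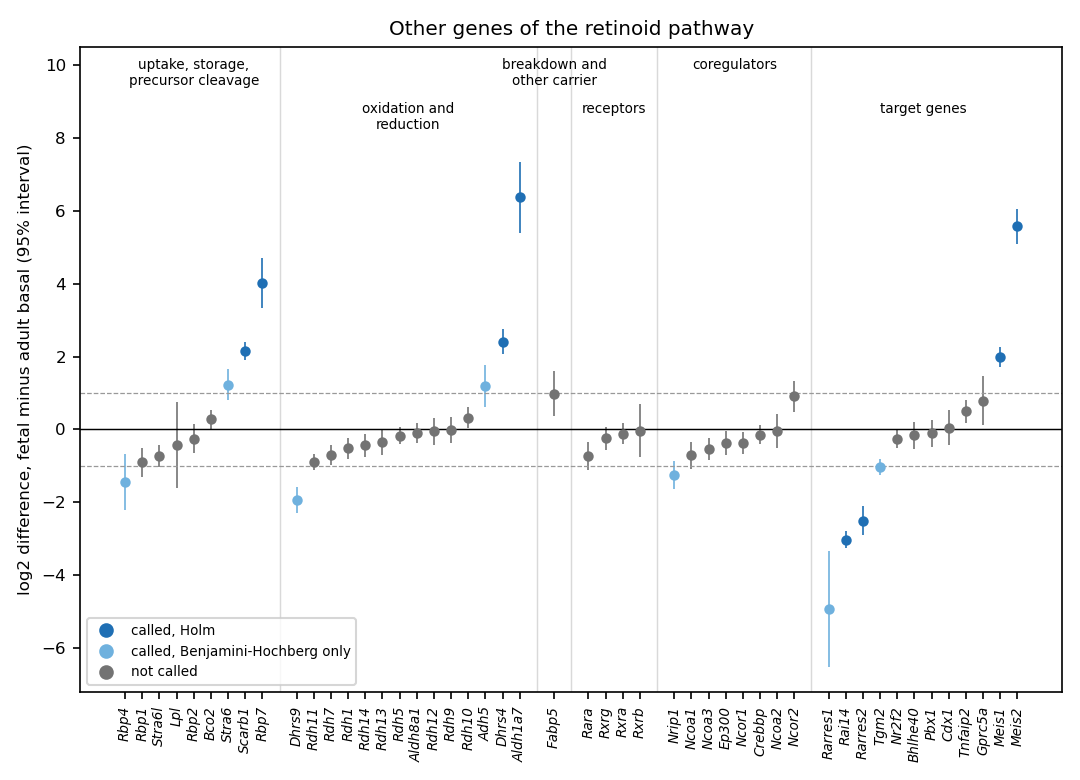
Fetal minus adult basal log2 difference of the 48 other retinoid pathway genes tested, grouped by role, with 95% confidence intervals; dark blue points were called after Holm adjustment, light blue points passed only with the Benjamini-Hochberg adjustment and grey points neither. Aldh1a7 at 6.37 and Meis2 at 5.58 stand highest among the called genes, Rai14 at -3.03 stands lowest, and the 4 receptors lie between -0.73 and -0.03.

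Among 8 receptor coregulators, all tested, none was called against 11.1% of all probes, 6 had an unadjusted p under 0.05 by limma against 64.7%, and 1 passed with the Benjamini-Hochberg adjustment against 30%. Of the 3 genes for breakdown of retinoic acid or its alternative carriage, only Fabp5, a fatty acid binding protein that also carries retinoic acid, was tested, and it was not called (difference 0.98, Benjamini-Hochberg adjusted p = 0.0133 by limma). No array showed Cyp26c1 well above background.

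Of 17 genes named in the literature as retinoic acid targets, 12 were tested, 2 rose and 2 fell in fetal cells, against 5.92% and 5.18% of all probes, and Meis2, which rose, had passed the low-signal filter through the fetal group alone. Meis1 and Meis2 are homeobox partners of Hox proteins. Meis1 stood at 11.51, 11.74 and 11.61 in fetal cells and 9.70, 9.50 and 9.71 in adult cells, a difference of 1.98 (SE 0.11, Holm-adjusted p = 0.00773 by limma). Meis2 stood at 9.86, 9.47 and 9.94 in fetal cells and 4.20, 3.82 and 4.50 in adult cells, a difference of 5.58 (SE 0.20, Holm-adjusted p = 0.00033 by limma), with 2 of 3 adult arrays well above background.

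The targets that fell in fetal cells were Rarres2, which encodes the secreted protein chemerin, and Rai14, an actin-binding protein first named for its induction by retinoic acid. Rarres2 stood at 7.82, 8.08 and 8.06 in fetal cells and 10.53, 10.17 and 10.78 in adult cells, a difference of -2.51 (SE 0.17, Holm-adjusted p = 0.0256 by limma). Rai14 stood at 9.55, 9.49 and 9.54 in fetal cells and 12.47, 12.61 and 12.58 in adult cells, a difference of -3.03 (SE 0.10, Holm-adjusted p = 0.000116 by limma). The list of targets thus held called genes in both directions, and its median difference was -0.14. It left out the members named above as induced by retinoic acid, Rarb, Crabp2, Dhrs3 and Cyp26b1. Meis2 and Rai14 were called in all 17 alternatives, with the difference of Meis2 running from 3.41 to 5.75. Meis1 was called in 9, with differences from 1.91 to 2.04, and Rarres2 in 8, with differences from -2.67 to -2.22. A term for the slide ended the calls of Meis1 and Rarres2, as did a term for the replicate number.

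A further 7 pathway genes passed only the Benjamini-Hochberg adjustment, and are named here after their values were seen. Stra6, the membrane receptor that takes retinol from the blood carrier, differed by 1.23 and the alcohol dehydrogenase Adh5 by 1.19, both fetal-higher. Rbp4, the blood carrier itself, differed by -1.44, the retinol dehydrogenase Dhrs9 by -1.94, the crosslinking enzyme Tgm2 by -1.03, the receptor corepressor Nrip1 by -1.26 and Rarres1 by -4.93, all adult-higher. Rarres1 was well above background on 1 of 3 fetal arrays. Adh5 passed the low-signal filter through the fetal group alone and Rarres1 through the adult group alone, which fixed their direction.

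The markers of other cell types that a sort could let through were read on the same arrays, since some of them also express retinoid genes. For each list the signals of its genes were summed and are given as log2 of the sum, with the gene whose probe was brightest over both groups, which is no ranking of RNA levels. Luminal markers stood at 17.79, 17.84 and 17.48 in fetal and 17.01, 16.94 and 16.93 in adult cells, with Krt18 the brightest. Basal markers stood at 16.60, 16.47 and 16.31 in fetal and 20.24, 20.20 and 20.20 in adult cells, with Acta2 the brightest. These lists moved with the group as Aldh1a3 did, the luminal list in its direction and the basal list against it, and their part in the difference was not tested.

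Salivary gland markers stood at 14.30, 14.44 and 14.48 in fetal and 9.23, 8.88 and 8.72 in adult cells, with Aqp5 the brightest. Of 5 tested 3 were called, all fetal-higher, against 5.92% of all probes. The water channel Aqp5 differed by 5.79, Dcpp1 by 8.60, and Smr3a, which no adult array showed well above background, was at least 69.1-fold higher in fetal cells. Smr3a and Dcpp1 passed the low-signal filter through the fetal group alone, which fixed their direction, and the other markers of the list, named after their values were seen, passed it through the adult group alone. These were higher on all adult arrays, the amylase Amy1 at -1.19 (Benjamini-Hochberg adjusted p = 0.00103 by limma) and Bpifa2 at -0.43, under the 2-fold limit. Epidermal markers stood at 11.19, 10.89 and 10.89 in fetal and 9.52, 9.62 and 9.54 in adult cells. Of 4 tested Krt10, the brightest, was called at 1.47, against 5.92% of all probes called fetal-higher, and its other probe, at 0.98, was not called. With the Benjamini-Hochberg adjustment 3 of the 4 passed, all fetal-higher, against 16% of all probes. Krt1 and Krtdap, which are among these 3, passed the filter through the fetal group alone, which fixed their direction. The sums of both lists were higher on all fetal arrays, as the signals of Aldh1a3 were, and their part was not tested.

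The summed fibroblast markers were higher on all adult arrays, and their part in the differences of the members was not tested. They stood at 12.61, 12.65 and 12.95 in fetal and 14.14, 14.43 and 14.81 in adult cells, with Col1a2 the brightest. Of 8 tested Pdgfrb (-4.34) and Dcn (-3.78) were called, both adult-higher, against 5.18% of all probes. Pdgfrb passed the filter through the adult group alone, which fixed its direction. With the Benjamini-Hochberg adjustment 4 of the 8 passed, all adult-higher, against 14% of all probes. No fetal array showed Dpt well above background.

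For the remaining cell types no marker was called, against 11.1% of all probes. Counts at an unadjusted p under 0.05 are again to be read against 64.7% of all probes, and those under the Benjamini-Hochberg adjustment against 30%. Leukocyte markers stood at 15.09, 14.84 and 14.70 in fetal and 14.60, 15.06 and 14.75 in adult cells, with Itgam the brightest, and 2 of 7 tested had an unadjusted p under 0.05 and 1 passed the Benjamini-Hochberg adjustment by limma. The probes of Adgre1 disagreed, with -0.42 at the brighter one and -4.66 at the weaker one (Benjamini-Hochberg adjusted p = 0.00169 by limma). No fetal array showed the weaker one well above background. Endothelial markers stood at 13.60, 13.41 and 13.64 in fetal and 13.68, 13.78 and 13.51 in adult cells, with Kdr the brightest, and of 5 tested 3 had an unadjusted p under 0.05 and 3 passed the Benjamini-Hochberg adjustment, adult-higher. Cdh5, which is among the 3 endothelial markers that passed, Lyz2, the leukocyte marker that passed, and the weaker Adgre1 probe entered the test through the adult group alone. This fixed their direction. No fetal array showed Tek or Tie1 well above background.

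Adipocyte markers stood at 10.28, 10.02 and 11.58 in fetal and 11.08, 10.98 and 11.26 in adult cells, with Fabp4 the brightest, and 2 of 6 had an unadjusted p under 0.05 and 0 passed the Benjamini-Hochberg adjustment by limma. Fetal replicate 3 was the high array of this list. It was also the highest fetal array for Crabp1, at 6.77, and for Aldh1a1, Aldh1a2, Rarb and Rarg. For Aldh1a3, at 13.05, and for Crabp2 and Cyp26b1 it was the lowest. Without fetal replicate 3 the Crabp1 difference was 1.64 and the Aldh1a3 difference 7.32.

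**Figure D4:**
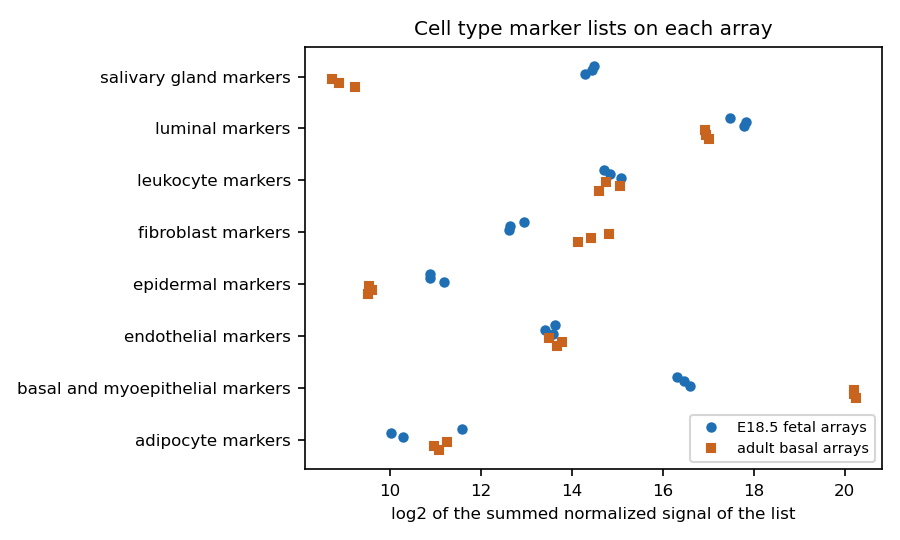
Log2 of the summed normalized signal of each cell type's marker list, with a point per array. Basal and fibroblast lists are higher in all 3 adult basal arrays, luminal, epidermal and salivary gland lists in all 3 fetal arrays, and the other lists overlap, with fetal replicate 3 at 11.58 in the adipocyte list beside 10.28 and 10.02.

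Each slide held arrays of both groups, which allowed the members to be read within a slide. Slide 1 held fetal replicate 1 with adult replicates 1 and 3, and slide 2 held fetal replicates 2 and 3 with adult replicate 2. The difference within slide 1 and within slide 2 was 7.08 and 7.43 for Aldh1a3, 1.71 and 1.39 for Aldh1a1, 1.82 and 2.13 for Cyp26b1, 1.50 and 1.62 for Rarb, 1.38 and 0.61 for Crabp2, -0.32 and -0.38 for Aldh1a2, and -0.36 and -0.09 for Dhrs3. Rarg stood at -0.03 within slide 1 and 0.65 within slide 2, so its direction was not the same on both. The members that were called or passed the Benjamini-Hochberg adjustment kept their direction on both slides.

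**Figure D5:**
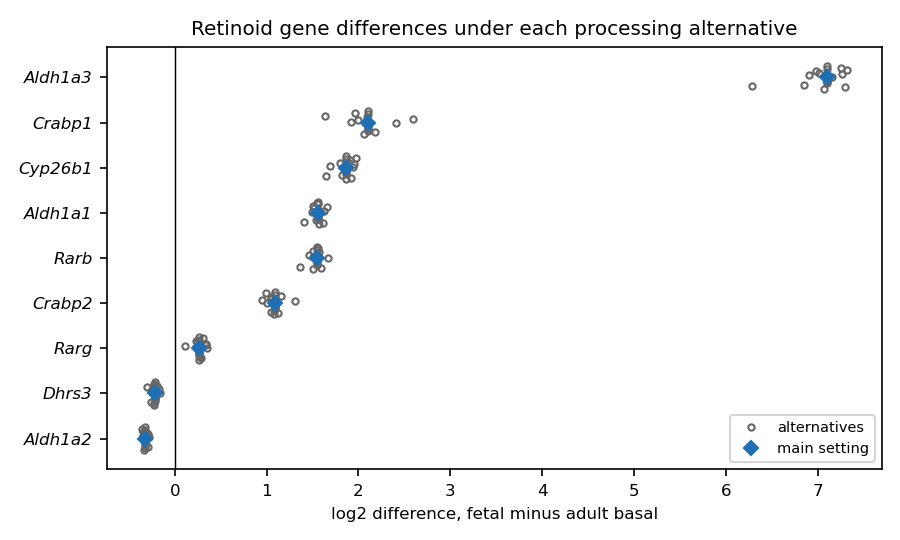
Fetal minus adult basal log2 difference of each of the 9 genes under the main processing and each alternative, with a point per setting. Aldh1a3 stays between 6.29 and 7.32, and no gene changes the sign of its difference in the settings that tested it, which leave out Crabp1, Rarb and Aldh1a2 under normexp and Crabp1 under the offset of 16.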

How the data were processed

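Total RNA from 3 fetal and 3 adult basal sorts was labelled with Cy3 and hybridised to Agilent 8x60K arrays. The labels name the Low Input Quick Amp kit and the study's methods its whole-transcript version. The deposited scanner files hold spot intensity that the authors extracted in version 11.0.1.1 of Agilent's Feature Extraction program (named in the submitters' processing notes), background-corrected as the processed signal. The value table deposited by the authors holds log2 values, normalized and with a median of 7.11, whose columns matched their own array at r = 0.998 to 0.999 and which served as an alternative. No column was left out as belonging to another series (0 such columns).

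Control spots and outlier spots (104 to 326 per array) were left out, spots of a probe averaged, and log2 processed signals quantile normalized. No spot was saturated. Of 55681 probes, 27235 matched 20660 genes by accession in the RefSeq gene table, which served for names alone. As in the study's methods, but on gene-matched probes alone and with 1 limit for both groups, k-means with 3 clusters (100 starts) on the log2 mean signal of each group set a low-signal limit of 5.95, and probes in the lowest cluster in both groups were removed. limma 3.58.1 in R 4.3.3 was fitted to the remaining 20448 probes of 15734 genes, with Holm adjustment. Python 3.11.15, pandas 2.3.3 and matplotlib 3.10.9 did the rest. A gene is given by its tested probe with the highest mean. The number of arrays limits the precision. A fold against a gene below background everywhere in a group is a bound against the lowest signal well above background. The code was tested on simulated data.

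Alternatives were the 75th percentile, the deposited log2 values, normexp on median spot and background signals with an offset of 50, an offset of 16, other filters and probe rules, Benjamini-Hochberg adjustment, variance trend, slide or replicate number as a block, and each array left out. Combinations of these with Benjamini-Hochberg adjustment were added after seeing the data. Named were all members, the other pathway genes called, the other receptors, and of each marker list its top gene and those called. Any other gene was named for its values or a motif match once these were seen, and only some are marked so where given. Members and lists were chosen with earlier results of these data known. 1 gene of the pathway list is not reported here, and counts over that list leave it out. Markers Cd68, Flg and Muc19 were not matched. All p-values are 2-sided.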

Additional observations from a re-analysis of the deposited data

How the results depend on the processing

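No member changed the sign of its difference in the alternatives that tested it. Crabp1, Rarb and Aldh1a2 were below the filter with normexp, as was Crabp1 with an offset of 16. Aldh1a3 was called in all 18 alternatives, with a Holm-adjusted p by limma of 0.000294 to 0.0059 when an array was left out. The number of members called (1) was 3 with normexp, 4 with an offset of 16, 3 with a variance trend, 2 with a slide block and 6 with Benjamini-Hochberg adjustment, or 5 with that and a slide block. Aldh1a1 passed under normexp (0.0311), the offset (0.0262) and the trend (0.0116), Rarb under the offset (0.0391), and Cyp26b1 under normexp (0.0117), the offset (0.0321), the trend (0.0139) and the slide block (0.0343). The number of other pathway genes called (8) was 3 without the filter, 5 with a slide block, 15 with Benjamini-Hochberg adjustment and 16 with that and a slide block. The number of probes called (2270) was 1182 without the filter, 6133 with Benjamini-Hochberg adjustment and 6167 with that and a slide block. Leaving out an array gave 952 (without fetal replicate 1) to 2014 probes, 1 to 2 members and 2 to 7 other pathway genes, or 5965 to 6383, 5 to 6 and 14 to 17 with Benjamini-Hochberg adjustment (6099 probes without adult basal replicate 2, 6022 without fetal replicate 2 and 6041 without fetal replicate 3). Without fetal replicate 2 it gave 968 probes, without fetal replicate 3 1072, without adult basal replicate 1 1503 and without adult basal replicate 3 1335. The causes were not tested, beyond the larger number of probes adjusted for without the filter and the fewer arrays.

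Same-numbered arrays deviated together at r = -0.032, 0.0933 and 0.0488, so the numbers were not read as pairs. A replicate block gave 1302 probes, 1 member and 3 other pathway genes called, and 6177, 6 and 15 with Benjamini-Hochberg adjustment. Signal over background limits what can be said of Crabp1, Aldh1a7 and Meis2 in adult cells.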
